A study of Mus musculus with 6 samples.

Results

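Collagen genes were examined in primary cultures of mouse Sertoli cells, which line the seminiferous tubule of the testis and support developing sperm. The family, and the lists of processing, receptor and cell type marker genes used below, were chosen with earlier results of these data known. Membership in the family was set by name alone, as every gene whose symbol reads Col, a number, the letter a and a number. The rule found 43 genes among the 29275 listed. They were sorted by the structure their proteins build into 11 fibrillar collagens, 8 basement membrane collagens and 24 others. The data were RNA sequencing libraries from 3 numbered biological replicates with a conditional deletion of Arhgef15 by their labels, named cKO, and 3 labelled wild type (WT). Arhgef15 encodes a guanine nucleotide exchange factor. All 6 cultures carry the label untreated, and one protocol describes them all, a medium with serum, antibiotics and epidermal growth factor. The sources used here do not give the Cre line, the deleted exons, the strain or the age of the mice. It is also not stated whether each culture came from a different animal, so a p-value sets a difference against the spread of these cultures only, which may be technical.

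Collagens are secreted proteins whose alpha chains wind around each other into a rod-like helix. Fibrillar collagens, led by type I and type III, pack into the banded fibrils that give connective tissue its strength. Type IV collagens form the sheet-like network of basement membranes, and type XV and type XVIII collagens sit at the border of that sheet. In the testis the seminiferous tubule rests on a basement membrane to which Sertoli cells and the surrounding peritubular myoid cells both contribute. A collagen molecule is built from fixed combinations of chains, so the genes of partner chains are best read together.

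The deposited values were read as FPKM, fragments scaled to the exon length of a gene and to the depth of the library. That unit was inferred from the values themselves. On this reading each library held 16790000 to 20320000 fragments, as given by the step between neighbouring values. Arhgef15 was listed at 0.501, 0.322 and 0.338 FPKM in the libraries labelled cKO, against 0.123, 0.0237 and 0.349 FPKM in WT, so its deletion did not show as a lower level in cKO. For Arhgef15 the p was 0.3 by exact permutation, two-sided, where 3 against 3 libraries cannot go below 0.1, and limma gave an adjusted p of 0.903 for a log2 difference of 0.26 (SE 0.13). WT replicate 3 stood apart from its group: across genes it correlated at 0.860 and 0.898 with WT replicates 1 and 2, against 0.947, 0.929 and 0.921 with the cKO libraries. The comparisons were therefore made with and without it. It was singled out by the same values that are compared, and leaving out the WT library most like cKO tends to widen the differences. Calls made without WT replicate 3 are therefore descriptions and no independent support.

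The collagen programme of these cultures was carried by a few genes in every library. Col1a1 and Col1a2, the chains of type I collagen, Col3a1, the chain of type III, and Col4a1 and Col4a2, the common chains of the basement membrane network, were the 5 highest genes. Together they made up 79.0% to 81.5% of the summed collagen FPKM in cKO and 77.4% to 81.7% in WT libraries. In bulk RNA, fewer cells of a type and less RNA per cell cannot be told apart, which holds for every level given here. A filter asking for 1 FPKM or more in 3 or more libraries was passed by 23 of the 43 genes, namely 6 of 11 fibrillar, 8 of 8 basement membrane and 9 of 24 other collagens. The test covered these 23 along with the rest of the 12284 genes that passed this filter.

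**Figure D1:**
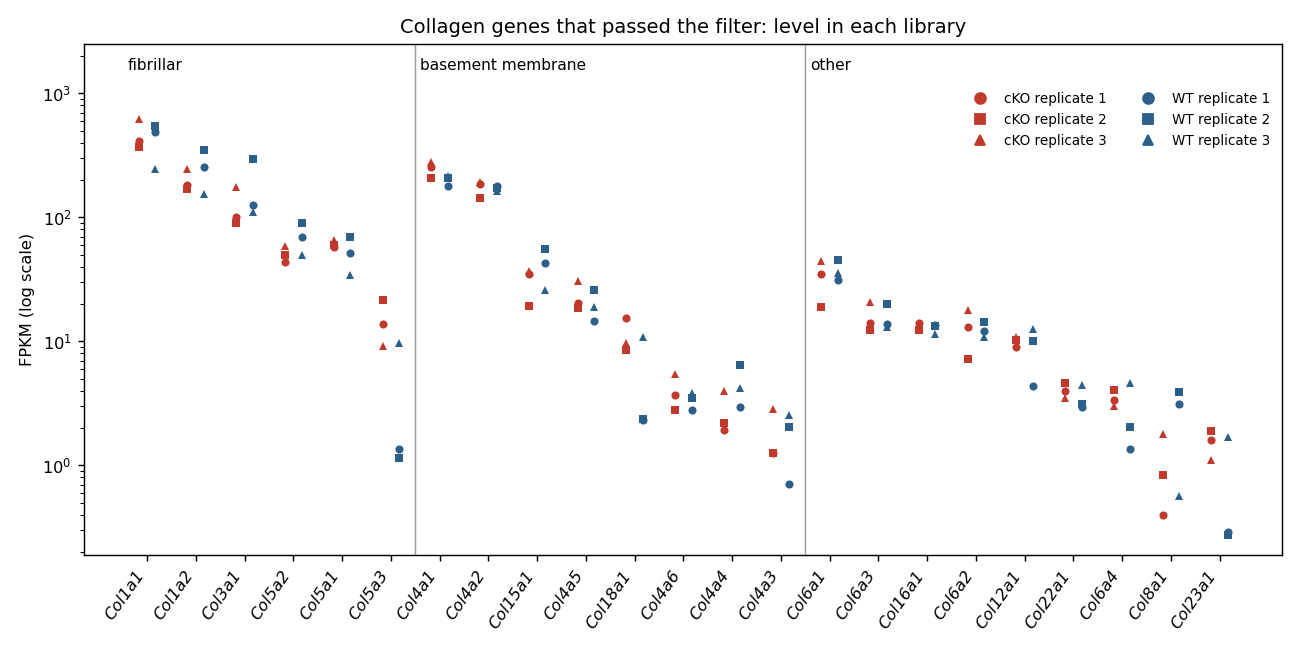
FPKM on a log scale for each of the 23 collagen genes that passed the filter, ordered by mean level within the fibrillar, basement membrane and other groups. Each point is 1 library, with cKO left of WT and the marker shape giving the replicate. For Col5a3, Col18a1 and Col23a1, WT replicate 3 lies with the 3 cKO libraries and apart from WT replicates 1 and 2.

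None of these 23 collagens passed the test between genotypes, 0 of 23 at a Benjamini-Hochberg adjusted p under 0.05 over all 12284 genes (limma on log2(FPKM + 1)), and the smallest adjusted p among them was 0.608. The share of all tested genes called was 0.0163%, or 2 genes. At an unadjusted p under 0.05 there were 2 collagens, Col5a3 and Col18a1, and 837 of all genes, which is 8.70% of the collagens and 6.81% of all genes tested. The cKO mean was the higher one for 14 collagens and the lower one for 9 (11 and 12 without WT replicate 3), with a median log2 difference of 0.03, beside 0.08 over all tested genes. The 3 cKO values lay clear of the 3 WT values for 0 of 23 collagens, while 11.3% of all tested genes were separated in this way.

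Leaving out WT replicate 3 changed this picture for a pair of genes. Without it, 2 of the 23 collagens were called, Col5a3 and Col18a1, both higher in cKO, where 3.89% of all tested genes were called and 2.47% were called higher. Without that library the groups were separated for 10 of 23 collagens, 6 higher and 4 lower in cKO, which is close to the 41.3% found over all tested genes. The median log2 difference of the collagens was -0.03 without that library, beside 0.11 for all tested genes. In 18 of 23 collagens, 78.3%, WT replicate 3 lay nearer to the cKO mean than to the mean of WT replicates 1 and 2, and the same held for 70.6% of all tested genes.

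**Figure D2:**
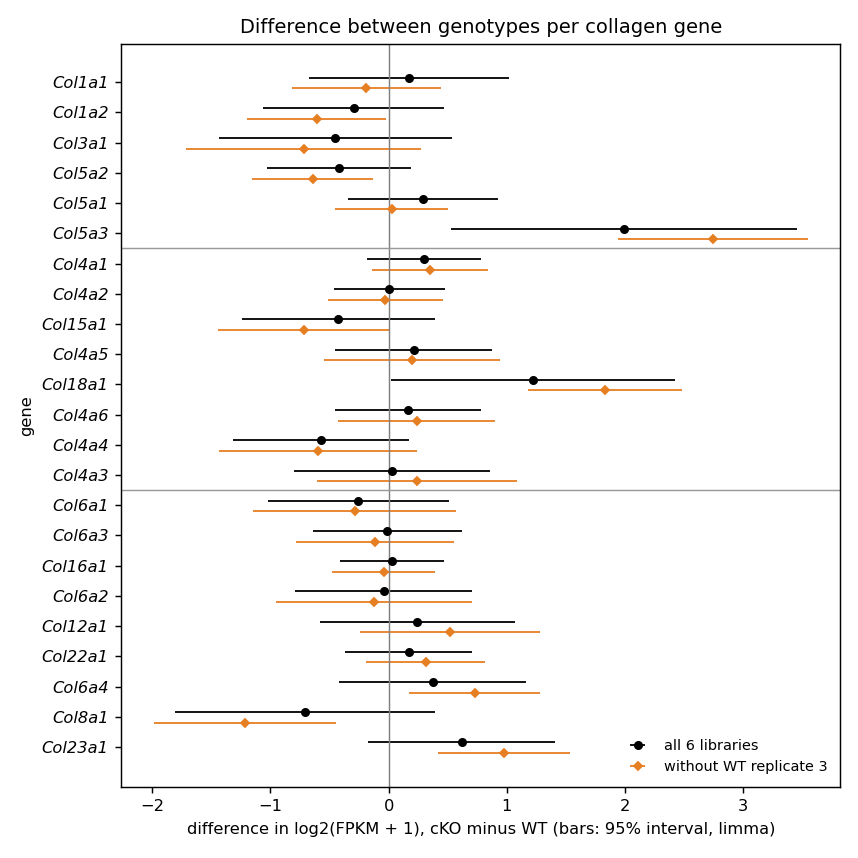
Difference in log2(FPKM + 1), cKO minus WT, for the 23 tested collagen genes, with 95% intervals from limma; black circles use all 6 libraries and orange diamonds leave out WT replicate 3. Col5a3 and Col18a1 lie farthest to the right at 1.99 and 1.22 with all libraries, and at 2.74 and 1.83 without WT replicate 3.

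Among the fibrillar collagens, type I and type III chains varied as much within a genotype as between them. Col1a1 (ENSMUSG00000001506), the alpha 1 chain of type I collagen, had 410.2, 365.9 and 617.5 FPKM in cKO replicates 1, 2 and 3, against 483.4, 550.3 and 244.8 FPKM in WT replicates 1, 2 and 3. The highest library was cKO replicate 3 and the lowest was WT replicate 3, and the groups overlapped. The means were 465 ± 134 FPKM in cKO and 426 ± 161 FPKM in WT (SD, n = 3 each), a log2 difference of 0.17 with a 95% interval of -0.68 to 1.01. That difference was -0.19 without WT replicate 3 and -0.054 without cKO replicate 3, so its sign rested on single libraries. Col1a2 (ENSMUSG00000029661), the alpha 2 chain, had 182.6, 168.2 and 243.5 FPKM in cKO, against 253.9, 351.9 and 155.4 FPKM in WT. All 3 cKO values lay below WT replicates 1 and 2 and above WT replicate 3. Col3a1, the chain of type III collagen found in distensible tissue, had 101.5, 89.6 and 174.6 FPKM in cKO, against 126.2, 293.9 and 110.0 FPKM in WT. WT replicate 2 was the highest library for Col3a1 and the other five overlapped.

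Type V collagen, which sits inside type I fibrils and limits their diameter, held the collagen with the widest difference. Its minor chain gene Col5a3 (ENSMUSG00000004098) had 13.8, 21.6 and 9.19 FPKM in cKO, against 1.36, 1.14 and 9.69 FPKM in WT. WT replicates 1 and 2 were low, while WT replicate 3 lay within the range of the cKO libraries. These levels rested on 1823, 2470 and 1257 fragments in cKO and on 174, 152 and 1341 in WT. The log2 difference was 1.99 (SE 0.63) with an adjusted p of 0.608 in limma, and 2.74 (SE 0.34) with an adjusted p of 0.0135 without WT replicate 3. The mean FPKM in cKO was 3.66-fold higher than the mean of all 3 WT libraries. Measured against WT replicates 1 and 2 only, it was 11.9-fold higher.

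The other type V chains had another order of libraries. Col5a1, the chain present in most type V molecules, had 57.8, 60.4 and 65.3 FPKM in cKO, against 51.5, 69.7 and 34.4 FPKM in WT. Col5a2, its usual partner, had 43.5, 49.4 and 58.5 FPKM in cKO, against 69.3, 89.6 and 49.3 FPKM in WT. For Col5a2 the cKO values lay below WT replicates 1 and 2, and WT replicate 3 fell among them. Its log2 difference was -0.42 with all libraries and -0.64 without WT replicate 3 (limma, adjusted p = 0.807 and 0.147).

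The 5 remaining fibrillar collagens were low. Col11a1, a chain of the type XI collagen of cartilage fibrils, was below the filter at 0.385, 0.369 and 0.742 FPKM in cKO, against 1.65, 1.83 and 0.606 FPKM in WT. WT replicates 1 and 2 were its highest libraries. Col2a1, the main collagen of cartilage, Col11a2, Col24a1 and Col27a1 never reached 0.5 FPKM.

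Basement membrane collagens all passed the filter, and the common type IV chains were among the 5 highest collagens in each library. Col4a1 (ENSMUSG00000031502) had 255.7, 207.5 and 279.8 FPKM in cKO, against 179.4, 207.1 and 215.2 FPKM in WT. The lowest cKO library was just above WT replicate 2 and below WT replicate 3. The means were 248 ± 36.8 FPKM in cKO and 201 ± 18.8 FPKM in WT, a log2 difference of 0.30 with an adjusted p of 0.829 in limma. Col4a2 (ENSMUSG00000031503), which joins Col4a1 in the same molecule, had 185.9, 142.7 and 193.7 FPKM in cKO, against 179.1, 172.8 and 164.2 FPKM in WT. Its means were 174 ± 27.5 and 172 ± 7.52 FPKM, and the 95% interval of its log2 difference ran from -0.47 to 0.48. Col4a1 and Col4a2 lie head to head on opposite strands of chromosome 8, with annotated starts 21 bp apart and 22 bp of shared exonic sequence.

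The minor type IV chains, known from specialised basement membranes such as that of the kidney glomerulus, were present at lower levels. Col4a5 had 20.3, 18.6 and 30.5 FPKM in cKO, against 14.6, 26.0 and 19.1 FPKM in WT. Its neighbour Col4a6, which lies in the opposite orientation on the X chromosome with a start 1343 bp away, had 3.69, 2.79 and 5.50 FPKM in cKO, against 2.82, 3.49 and 3.80 FPKM in WT. Both had their highest value in cKO replicate 3, and the genotypes overlapped for each. Col4a3 ranged from 1.26 to 2.83 FPKM in cKO and from 0.712 to 2.54 FPKM in WT. Of its exonic length, 5.65% also belongs to the opposite-strand gene C430014B12Rik, and without a stated strand setting fragments there cannot be assigned. Col4a4 ranged from 1.93 to 3.94 FPKM in cKO and from 2.98 to 6.42 FPKM in WT, with a log2 difference of -0.57 (limma, adjusted p = 0.779).

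The pair of multiplexins, collagens with an interrupted helix, had differences of opposite sign, and neither passed with all libraries. Col18a1 (ENSMUSG00000001435), whose end piece is released as endostatin, had 15.4, 8.48 and 9.70 FPKM in cKO, against 2.30, 2.35 and 10.9 FPKM in WT. WT replicates 1 and 2 were the low libraries, and WT replicate 3 lay inside the cKO range. The log2 difference was 1.22 (SE 0.51, limma adjusted p = 0.727) with all libraries and 1.83 (SE 0.28, adjusted p = 0.0219) without WT replicate 3. Col15a1, the other multiplexin, had 34.7, 19.3 and 37.0 FPKM in cKO, against 43.0, 55.1 and 26.0 FPKM in WT. Here WT replicates 1 and 2 were the highest libraries, and the log2 difference of -0.43 did not pass (limma, adjusted p = 0.864).

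The other collagens included 4 of the 6 type VI genes, whose products form beaded filaments around cells. Col6a1 had 34.7, 18.8 and 44.2 FPKM in cKO, against 31.5, 45.2 and 35.4 FPKM in WT. Col6a2 had 13.2, 7.18 and 17.8 FPKM in cKO, against 12.04, 14.3 and 10.9 FPKM in WT. Col6a3 had 13.9, 12.3 and 20.9 FPKM in cKO, against 13.8, 20.1 and 13.2 FPKM in WT. For these 3 chains cKO replicate 2 was the lowest library, and the log2 differences lay between -0.26 and -0.01, with the sign of each turning when that library was left out (0.083, 0.29 and 0.14). None of them passed the test. Col6a4 differed from them in its order of libraries, with 3.36, 4.02 and 3.01 FPKM in cKO, against 1.36, 2.06 and 4.60 FPKM in WT.

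Collagens that attach to the surface of fibrils (FACIT) gave 3 genes above the filter. Col16a1 had the smallest spread over libraries of the 23 tested collagens, at 14.1, 12.4 and 12.4 FPKM in cKO, against 13.5, 13.2 and 11.4 FPKM in WT. The 95% interval of its log2 difference ran from -0.41 to 0.47. Col12a1 had 8.97, 10.3 and 10.9 FPKM in cKO, against 4.33, 10.1 and 12.6 FPKM in WT, and Col22a1, first described at tissue junctions, had 3.99, 4.65 and 3.49 FPKM in cKO, against 2.95, 3.14 and 4.46 FPKM in WT. For both, WT replicate 1 was the lowest library and the groups overlapped.

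A network-forming and a transmembrane collagen showed the split within WT at low levels. Col8a1, a short-chain collagen of vessel walls and of Descemet's membrane in the eye, had 0.395, 0.844 and 1.80 FPKM in cKO, against 3.11, 3.90 and 0.565 FPKM in WT. WT replicates 1 and 2 were the high libraries, and WT replicate 3 was lower than all but cKO replicate 1. Its log2 difference was -0.71 with all libraries and -1.22 without WT replicate 3 (limma, adjusted p = 0.819 and 0.0918). Col23a1, a transmembrane collagen, had 1.61, 1.90 and 1.11 FPKM in cKO, against 0.288, 0.277 and 1.69 FPKM in WT. Its log2 difference was 0.62 with all libraries and 0.97 without WT replicate 3 (limma, adjusted p = 0.772 and 0.0719). Col8a1 met the filter through cKO replicate 3 and WT replicates 1 and 2, and Col23a1 through its 3 cKO libraries and WT replicate 3, so that they were tested at all is not independent of where they were high.

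**Figure D3:**
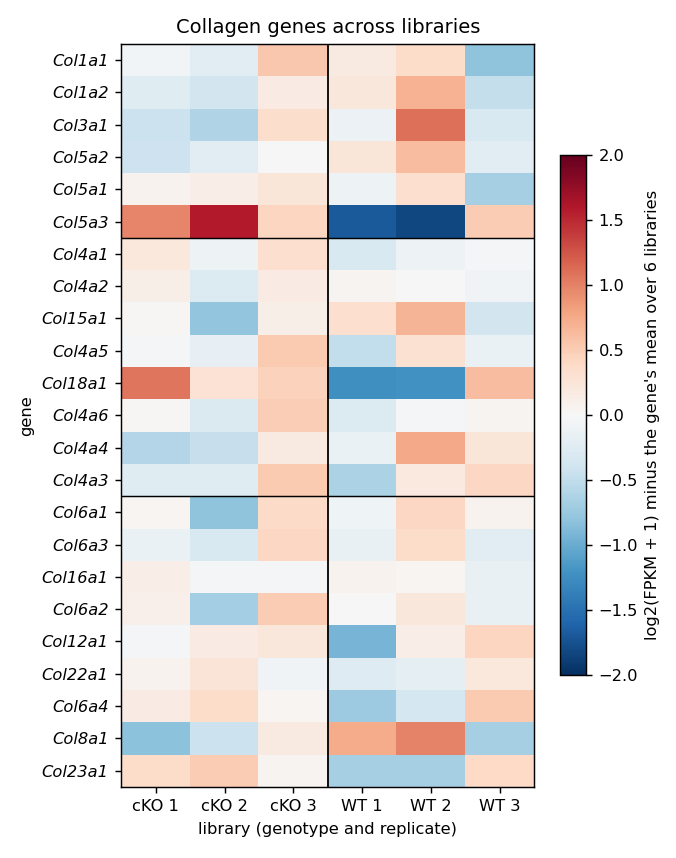
Log2(FPKM + 1) of each tested collagen gene minus its own mean over the 6 libraries, with cKO replicates 1 to 3 left of WT replicates 1 to 3; red is above and blue below the gene's mean. Col5a3, Col18a1 and Col23a1 are blue in WT replicates 1 and 2 only, and Col8a1 is reddest there.

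Below the filter were 20 collagens, of which 4 reached 0.5 FPKM in some library. Besides Col11a1 these were Col7a1, Col13a1 and Col20a1. Col7a1, the anchoring fibril collagen of epithelia, had 1.54, 0.336 and 0.808 FPKM in cKO, against 0.0363, 0.0399 and 1.78 FPKM in WT. That rested on 308, 58 and 167 fragments in cKO and on 7, 8 and 372 in WT, so WT replicates 1 and 2 were close to silent and WT replicate 3 was the highest library. Col13a1, a transmembrane collagen of the neuromuscular junction, had 0.903, 0.382 and 0.383 FPKM in cKO, against 0.0569, 0.0219 and 0.536 FPKM in WT. Col20a1 had 0.492, 0.209 and 0.0678 FPKM in cKO, against 0.187, 0.0598 and 0.622 FPKM in WT. The other 16 stayed at or below 0.435 FPKM, and Col9a1 and Col10a1, cartilage collagens, were listed at 0 in all 3 cKO libraries, with at most 0.00971 and 0.153 FPKM in a WT library. In the fit over all 29275 genes without the filter, 0 of these 20 were called and 0 had an unadjusted p under 0.05 (limma). Of all genes in that fit 0% were called and 4.52% had such a p. The groups were separated for 2 of the 20, Col27a1 and Col26a1, both with higher values in cKO, beside 7.94% of all genes. Col27a1, a fibrillar collagen of cartilage, had 0.174, 0.407 and 0.294 FPKM in cKO, against 0.123, 0.102 and 0.140 FPKM in WT. Col26a1 rested on 12, 2 and 4 fragments in cKO and on 0, 0 and 2 in WT. Both were named after their values were seen.

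Summed over all 43 genes, collagen FPKM came to 1428, 1233 and 1851 in cKO, against 1497, 1947 and 1149 in WT. WT replicate 2 had the highest sum and WT replicate 3 the lowest, and collagens took 0.412% to 0.635% of all FPKM in cKO and 0.392% to 0.634% in WT libraries. Fibrillar genes held 56.8%, 61.3% and 63.2% of the collagen FPKM in cKO, against 66.0%, 69.8% and 52.6% in WT. Basement membrane genes held 36.4%, 32.7% and 30.4% in cKO, against 28.4%, 24.4% and 38.8% in WT. WT replicate 3 had the lowest fibrillar and the highest basement membrane share of the 6 libraries. The level of these shares depends on the exonic length each gene is divided by. That length was 2.32, 1.76 and 1.45 times the longest coding transcript for Col1a2, Col3a1 and Col5a2. For Col1a1, Col4a1 and Col4a2 it was 1.11, 1.13 and 1.03 times that transcript. The fibrillar share may therefore be understated.

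**Figure D4:**
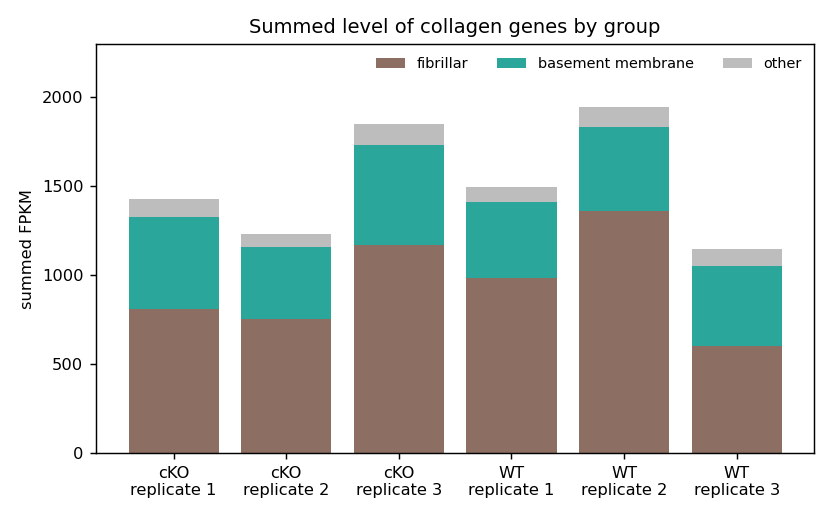
Summed FPKM of the 43 collagen genes in each library, stacked by fibrillar (brown), basement membrane (green) and other (grey) collagens, with cKO replicates left of WT replicates. The sums range from 1233 to 1851 in cKO and from 1149 to 1947 in WT.

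Ratios of collagen genes within a library do not depend on how much collagen RNA the library held. Of 10 computed ratios, 8 set chains that can join in the same molecule against each other and 2 set related collagens of different molecules against each other. In 3 of the 8 the cKO and WT values did not overlap, all higher in cKO, and in 0 of the other 2. Over all 253 pairs of tested collagens 9.09% were separated in this way, and since pairs share genes and the 10 were picked for their biology, no p is given. Col1a1 over Col1a2 was 2.25, 2.18 and 2.54 in cKO, against 1.90, 1.56 and 1.58 in WT. Col4a1 over Col4a2 was 1.38, 1.45 and 1.44 in cKO, against 1.00, 1.20 and 1.31 in WT. Col5a1 over Col5a2 was 1.33, 1.22 and 1.12 in cKO, against 0.743, 0.778 and 0.697 in WT. The lack of overlap itself places WT replicate 3 with the other WT libraries in these 3 ratios, so its side is no separate result. For Col4a1 over Col4a2 it was the WT library nearest to cKO. Col5a1 over Col5a2 had means of 1.22 ± 0.106 in cKO and 0.740 ± 0.0407 in WT (SD, n = 3 each). Of the exonic length of Col5a1, 2.5% also belongs to opposite-strand genes, and the part of fragments there was not tested.

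The level of these ratios depends on the length each gene is divided by, while the comparison between genotypes does not. The exonic length behind Col1a2 is 12426 bp, 2.32 times its longest coding transcript of 5348 bp, so its FPKM is understated relative to Col1a1. Divided by the longest coding transcript instead, Col1a1 over Col1a2 was 1.07, 1.04 and 1.21 in cKO, against 0.907, 0.745 and 0.750 in WT. The GC content of the longest transcripts also differed within pairs, at 58.0% for Col5a1 and 49.6% for Col5a2, 58.9% for Col1a1 and 55.7% for Col1a2, and 57.7% for Col4a1 and 60.6% for Col4a2. Across the 23 collagens, Spearman's rank correlation between GC content and the log2 difference was 0.40, beside 0.05 over 12244 tested genes, and without WT replicate 3 it was 0.26 and -0.13. With exonic length in place of GC content, the correlation was -0.23 for the collagens and 0.21 over the tested genes. Without WT replicate 3 those values were -0.09 and 0.275. Genes are not independent and share their libraries, so these are descriptions, and the part of GC content or length in the ratios was not tested.

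Other partner ratios overlapped between genotypes. Col4a3 over Col4a4 was 0.652, 0.572 and 0.718 in cKO, against 0.239, 0.318 and 0.610 in WT, with WT replicate 3 inside the cKO range. Col4a5 over Col4a6 ranged from 5.49 to 6.67 in cKO and from 5.01 to 7.47 in WT. Col6a1 over Col6a2 ranged from 2.48 to 2.64 in cKO and from 2.62 to 3.25 in WT.

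**Figure D5:**
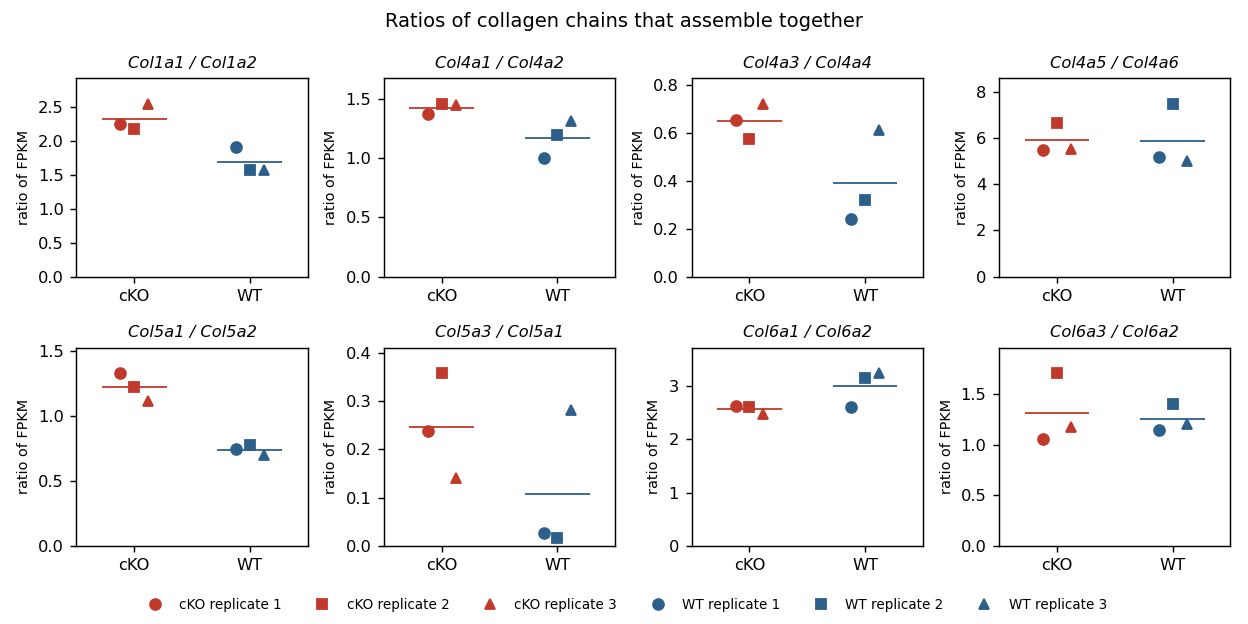
Ratio of FPKM of collagen chains that assemble together, in 8 panels, with cKO left of WT, points for libraries and lines for the mean of 3. The Col1a1/Col1a2, Col4a1/Col4a2 and Col5a1/Col5a2 panels have no overlap between genotypes, and the other 5 panels overlap.

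The promoters of Col5a3 and Col8a1 are shown because these tested collagens lay farthest above and farthest below 0 in the difference between genotypes. The windows are the 250 bases before the annotated start in the RefSeq annotation of GRCm38.p6, both on the minus strand of the chromosome and written along the gene, at chr9:20815068-20815317 for Col5a3 and chr16:57754738-57754987 for Col8a1. Capitals mark matches on either strand to 4 motifs. The GC box was searched as GGGCGG. The CCAAT box was searched by the letters in its name. The TATA box was searched as TATAAA. The AP-1 site was searched as TGANTCA, and no matches overlapped.
Col5a3 promoter: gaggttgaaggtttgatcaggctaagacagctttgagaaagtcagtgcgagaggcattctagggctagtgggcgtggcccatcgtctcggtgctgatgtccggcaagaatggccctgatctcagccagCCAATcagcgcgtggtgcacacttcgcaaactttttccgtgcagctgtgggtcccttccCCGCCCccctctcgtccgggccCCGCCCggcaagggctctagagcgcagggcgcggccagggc
Col8a1 promoter: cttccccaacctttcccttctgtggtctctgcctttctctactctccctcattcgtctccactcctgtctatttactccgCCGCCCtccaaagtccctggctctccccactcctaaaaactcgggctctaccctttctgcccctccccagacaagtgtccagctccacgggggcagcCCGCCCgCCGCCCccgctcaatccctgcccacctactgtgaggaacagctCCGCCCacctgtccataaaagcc

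The Col5a3 window held 2 GC boxes and 1 CCAAT box, and the Col8a1 window held 4 GC boxes and no CCAAT box. Neither held a match to the TATA box or AP-1 letters. GC boxes were found in 32.7%, CCAAT boxes in 33.8%, TATA boxes in 12.4% and AP-1 matches in 6.7% of 32851 promoter windows of the same length. The GC content of these windows was 62.8% for Col5a3 and 60.8% for Col8a1, against a median of 52.4% over all windows. A match of letters is a description and not evidence of binding.

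Collagen chains need hydroxylation, chaperones, trimming and cross-linking before they form a matrix, and 34 of 38 listed processing genes were tested. None of the 34 was called with all libraries (limma), with 2 (5.88%) at an unadjusted p under 0.05 beside 6.81% of all tested genes, and the median log2 difference was -0.03. The groups were separated for 4 of 34, or 11.8% beside 11.3% of all tested genes: Lox and P4hb with lower and Bmp1 and Pxdn with higher values in cKO. Lox, the lysyl oxidase that starts collagen cross-linking, had 150.7, 177.7 and 177.4 FPKM in cKO, against 210.3, 352.9 and 237.0 FPKM in WT (log2 difference -0.63, limma adjusted p = 0.692). Pxdn, the peroxidase that forms sulfilimine cross-links in type IV collagen, had 13.7, 13.6 and 14.0 FPKM in cKO, against 7.87, 13.0 and 10.4 FPKM in WT (log2 difference 0.39, limma adjusted p = 0.787). Bmp1, the protease that removes the C-propeptide of fibrillar procollagens, had 36.6, 35.0 and 40.6 FPKM in cKO, against 29.7, 27.8 and 32.9 FPKM in WT. The lack of overlap itself places WT replicate 3 with the other WT libraries in these 3 genes. For Bmp1 it was the WT library nearest to cKO.

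Adamts14, a protease that removes the N-propeptide, had 8.05, 9.62 and 5.52 FPKM in cKO, against 4.22, 2.77 and 5.59 FPKM in WT. Sparc, a collagen-binding matricellular protein, had 958.9, 801.0 and 962.1 FPKM in cKO, against 1388, 1312 and 950.9 FPKM in WT. Pcolce, which enhances the C-propeptide cleavage by Bmp1, had 74.3, 61.6 and 77.9 FPKM in cKO, against 208.1, 131.9 and 54.6 FPKM in WT. Without WT replicate 3, Pcolce and the lysyl oxidase-like gene Loxl3 were called lower in cKO, at log2 differences of -1.21 and -1.17 (limma, adjusted p = 0.0474 and 0.0249). These are 2 of 34, where 1.42% of all tested genes were called lower and 3.89% in either direction. Loxl3 and P4hb, a subunit of collagen prolyl hydroxylase, were named after their values were seen.

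Of 12 listed collagen receptors 7 were tested, and 0 were called with all libraries (limma), with 1 (14.3%) at an unadjusted p under 0.05 beside 6.81% of all tested genes. That was Ddr1, a receptor tyrosine kinase activated by collagen, with 79.9, 93.6 and 99.2 FPKM in cKO, against 57.4, 60.0 and 49.9 FPKM in WT. It was the 1 receptor of 7 whose values did not overlap, beside 11.3% of all tested genes, and the log2 difference was 0.69 (SE 0.19, limma adjusted p = 0.558). Ddr2, the related receptor for fibrillar collagens, had 16.6, 24.0 and 22.0 FPKM in cKO, against 18.2, 32.3 and 32.6 FPKM in WT. Adgrg1, an adhesion G protein-coupled receptor that binds type III collagen, had 19.4, 8.67 and 20.2 FPKM in cKO, against 2.88, 3.21 and 16.6 FPKM in WT. Without WT replicate 3, Adgrg1 and Itga2, an integrin subunit of collagen receptors, were called higher in cKO, at log2 differences of 2.00 and 1.73 (limma, adjusted p = 0.0352 and 0.0314). These are 2 of 7, where 2.47% of all tested genes were called higher. Itga2, with 4.43, 4.57 and 2.40 FPKM in cKO against 0.217, 0.640 and 10.9 FPKM in WT, met the filter through the cKO libraries and WT replicate 3, so its call without that library comes from a gene admitted through the group where it was high. Itga2 was named after its values were seen.

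Markers of Sertoli cells, endothelial cells and macrophages followed the same split of libraries as Col5a3, Col18a1 and Col8a1. Stroma and peritubular myoid markers followed it in part. Without WT replicate 3 the groups were separated for 6 of 8 tested Sertoli and 5 of 5 endothelial markers, all higher in cKO, and for 7 of 7 macrophage markers, all lower, beside 41.3% of all tested genes. Endothelial Pecam1, Kdr, Emcn and Esam and Sertoli Dhh and Rhox5 met the filter only through the cKO libraries and WT replicate 3. Their separation without that library therefore comes from genes admitted through the group where they were high. In the same setting 4 of 6 stroma markers were separated, 3 lower and 1 higher in cKO. So were 3 of 6 peritubular myoid markers, all lower, 2 of 4 Leydig markers, 1 higher and 1 lower, and 0 of 5 germ cell markers. WT replicate 3 lay nearer to the cKO mean for 6 of 7 macrophage markers, not Adgre1, beside 70.6% of all tested genes. Adgre1, Dhh, Rhox5 and Emcn were named after their values were seen. The summed FPKM of 10 Sertoli cell markers was 481.8 to 725.2 in cKO, against 202.3, 159.5 and 649.5 in WT replicates 1, 2 and 3. Clu was the largest part of each sum, at 335.3 to 451.9 FPKM in cKO, against 106.7, 79.2 and 475.8 FPKM in WT. The leading Sertoli markers Clu, Cldn11 and Sox9 were low in WT replicates 1 and 2, while Gata4 was not. The 6 peritubular myoid markers, led by Acta2, Actg2, Des and Cnn1, summed to 672.7 to 1263 FPKM in cKO, against 3050, 2399 and 506.1 FPKM in WT, and most of each sum was Acta2, at 598.7 to 1070 FPKM in cKO, against 2853, 2240 and 431.8 FPKM in WT. Des and Cnn1 were highest in cKO replicate 3, and the mean log2(FPKM + 1) of the 6 myoid genes was 4.70, 4.02 and 5.83 in cKO, against 5.77, 5.50 and 4.67 in WT. The 8 macrophage markers, led by Lyz2, Cd68, C1qb and C1qa, summed to 91.96 to 204.3 FPKM in cKO, against 1117, 893.7 and 165.9 FPKM in WT. The 7 endothelial markers, led by Cdh5, Pecam1, Esam and Kdr, summed to 45.0 to 79.4 FPKM in cKO, against 32.2, 28.6 and 53.8 FPKM in WT. Most of each sum was Cdh5, at 55.6, 46.0 and 31.6 FPKM in cKO, against 30.3, 27.0 and 37.5 FPKM in WT.

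The 8 fibroblast and stroma markers, led by Dcn, Pdgfra, Tcf21 and Ogn, summed to 84.9 to 126.3 FPKM in cKO, against 139.8, 216.6 and 145.3 FPKM in WT. In WT replicate 3 most of that sum was Dcn, at 93.98 FPKM. The mean log2(FPKM + 1) of the 8 stroma genes overlapped, at 2.43, 2.50 and 2.86 in cKO, against 3.14, 3.56 and 2.63 in WT. With all 6 libraries 2 of 8 tested Sertoli markers were separated, Sox9 and Dhh, both higher in cKO, beside 11.3% of all tested genes. In that setting 0 of 6 stroma, 0 of 6 peritubular myoid, 0 of 5 endothelial and 0 of 7 macrophage markers were separated. The same held for 0 of 4 Leydig and 0 of 5 germ cell markers. The 6 Leydig cell markers, led by Cyp11a1, Star, Hsd3b1 and Insl3, summed to 142.4 to 241.4 FPKM in cKO and to 197.2 to 361.9 FPKM in WT. The 6 germ cell markers, led by Prm1, Prm2, Dazl and Tnp1, summed to 12.2 to 196.4 FPKM in cKO and to 38.4 to 147.0 FPKM in WT. None of these markers was at 0 in all libraries, and 0 members of any of the 7 lists were called with all 6 libraries (limma). At an unadjusted p under 0.05 there were 3 of 8 tested Sertoli, 2 of 7 macrophage, 1 of 6 stroma, 1 of 6 peritubular myoid, 1 of 5 endothelial, 0 of 4 Leydig and 0 of 5 germ cell markers, beside 6.81% of all tested genes. Fibroblasts, peritubular myoid cells and endothelial cells make collagens too, and the part of these cells in the collagen values was not tested.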

How the data were processed

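Each library has 1 deposited table with a value per gene. The values were read as FPKM computed by the authors, since multiplied by exonic length (GENCODE M21) they fall near whole multiples of 1 step per library: of values resting on 10 or fewer fragments in genes of a single exon, 99.0% to 99.4% did so within 0.02 times the fragment number. Col5a1 and Col13a1 lay up to 0.41 and 0.5 fragments from a whole number. The submitters' processing notes name FastQC, HISAT2 2.1.0 and genome build mm8. The exonic lengths that match are of a later build, so the named one is in doubt. The sources used here do not give the counting tool or the strand setting. No count model was applied to FPKM. Genes reaching 1 FPKM in 3 or more of the 6 libraries were tested with limma 3.58.1 under R 4.3.3 (eBayes, trend) on log2(FPKM + 1), two-sided, with genotype as the only term, Benjamini-Hochberg adjustment over all tested genes and a threshold of 0.05. The log2(FPKM + 1) scale understates changes of low genes. Intervals are 95%. Arhgef15, below the filter, was fitted over all 29275 genes, and by exact permutation. Collagen, processing, receptor and cell type marker lists were chosen with earlier results of these data known. Named genes were Arhgef15, all collagens above the filter, those below it that reached 0.5 FPKM, the 6 processing and 3 receptor genes with the smallest p, and the 4 highest markers of each list. Python 3.11.15 was used for tables, and the fit was tested on simulated data. Alternatives were other filters (none, 5 FPKM), pseudocounts (0.1, 5), median-ratio and quantile scaling, array weights, a replicate block and each library left out.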

Additional observations from a re-analysis of the deposited data

How the results depend on the processing

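Under the other filters, pseudocounts, scalings, array weights and the replicate block, 0 collagen, 0 processing and 0 receptor genes were called, as with all 6 libraries. Leaving out 1 library gave 0 to 2 called collagens, 0 to 2 processing genes and 0 to 2 receptor genes, and the 2 came without WT replicate 3 in each list. Over all genes the count of 2 became 0 without the filter and 0 with the replicate block, and 0 to 478 with 1 library left out. The replicate numbers gave no sign of pairing: same-numbered libraries had correlations of their deviations of 0.14, 0.03 and -0.21. Those of differently numbered libraries ran from -0.45 to 0.48. With 3 libraries per group these values cannot exclude a shared day or animal. Arhgef15 stayed between 0.17 and 0.37 (log2) with 1 library left out. Of 315 log2 differences of the 23 collagens under the alternatives, 288 kept their direction and call, 2 became calls and 25 turned sign, in 9 genes. Median-ratio scaling gave -0.039 for Col16a1, -0.0071 for Col4a3 and -0.066 for Col4a2. Quantile scaling gave -0.031 for Col16a1 and -0.11 for Col4a3. Array weights gave 0.036 for Col6a3, -0.012 for Col16a1 and -0.076 for Col4a2. With 1 library left out, log2 differences ran from -0.044 to 0.35 for Col4a6, -0.22 to 0.17 for Col6a3, -0.16 to 0.52 for Col12a1, -0.041 to 0.070 for Col16a1, -0.29 to 0.24 for Col4a3, -0.19 to 0.39 for Col1a1, -0.31 to 0.29 for Col6a2, -0.077 to 0.14 for Col4a2 and -0.51 to 0.083 for Col6a1. The cause was not tested. The median of all genes moved by less than 0.1 between scalings (0.08, 0.02 and 0.00). Depth limits the collagens that rest on a few fragments, such as Col7a1 in WT replicates 1 and 2.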
